A study of Mus musculus with 9 samples.

Results

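The 6 chemokine receptor genes Ccr2, Ccr6, Ccr9, Cxcr3, Cxcr4 and Cx3cr1 were followed through 9 RNA-seq libraries of mouse lymph node dendritic cells. They were taken by name from a list of chemokine receptors without Ccr7. The rule uses no measured value, although earlier results of these data were known when it was written. They are 6 of the 53458 genes to which the deposited transcripts were summed. The libraries were labelled as type 1 conventional dendritic cells (cDC1) from lymph nodes beside the pancreas, with 3 each from the stages Healthy, PanIN and Tumor. PanIN stands for pancreatic intraepithelial neoplasia, the precursor lesion of pancreatic cancer, and the design text gives the lymph nodes of the later stages as draining PanIN or tumor. The series title names KPC, a name in use for a mouse model of pancreatic cancer; the labels give no alleles, driver, age or sex for any of the 3 groups. No label states that each library is its own animal, and none mentions pooling, so a p-value here reflects only how much these libraries vary, which may be technical.

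Chemokine receptors are G protein-coupled receptors at the cell surface that steer a cell along a gradient of small secreted proteins, the chemokines. On binding, the receptor activates an inhibitory G protein, which drives movement through lipid kinases and small GTPases, and kinases and arrestins then shut the receptor down. cDC1 are the dendritic cells that take up dying cells and show their antigens to CD8 T cells. They are known by Xcr1, the receptor for Xcl1, and on maturing they gain Ccr7, the receptor for Ccl19 and Ccl21 that leads them into lymph nodes. Among the 6 receptors, Ccr2 binds Ccl2 and related chemokines and is best known for bringing monocytes out of the bone marrow, and Cxcr3 binds the interferon-induced Cxcl9, Cxcl10 and Cxcl11. Cxcr4 binds Cxcl12 of stromal cells, Ccr9 binds Ccl25 of the small intestine and thymus, Ccr6 binds Ccl20 of mucosal surfaces, and Cx3cr1 binds the membrane-anchored Cx3cl1.

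Levels of a gene across libraries are given in CPM, counts scaled to a common library size, with TMM factors, which adjust library sizes for differences in composition. Levels of different genes are set beside each other only in TPM, the deposited measure of transcript abundance, which is per length. Libraries are numbered 1 to 3 within a stage only to name them. The libraries held 32150281 to 68934430 estimated counts. All 10 markers fixed for cDC1 passed the filter on low counts, and their sum ran from 4180 to 15200 CPM, with Xcr1 at 249 to 1080 CPM and Clec9a, a receptor for dying cells, at 177 to 669 CPM. Healthy 2 stood apart, with the highest cDC1 marker sum, 15200 CPM, and the lowest sum of 10 markers of mature or migratory dendritic cells, 649 CPM against 3740 to 15300 CPM elsewhere. Results that rest on Healthy 2 are therefore also given without it. The 3 libraries numbered 1 share a code in their titles that no other library carries, and values within that code are given where they bear on a result.

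In the GRCm38 genome, 3 of the 6 genes lie on chromosome 9. Ccr9 (ENSMUSG00000029530, chr9:123678439-123784330, plus strand) and Ccr2 (ENSMUSG00000049103, chr9:124101950-124113557, plus strand) are in the same receptor cluster as Xcr1, and Cx3cr1 (ENSMUSG00000052336, chr9:119901616-120069879, minus strand) lies nearer the start of the chromosome. Ccr6 (ENSMUSG00000040899) is at chr17:8236043-8257141 on the plus strand, Cxcr3 (ENSMUSG00000050232) at chrX:101731535-101734269 on the minus strand and Cxcr4 (ENSMUSG00000045382) at chr1:128588199-128592293 on the minus strand. All 6 are annotated as protein-coding in GENCODE M21.

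A quantifier has to divide reads that fall on stretches which a receptor shares with another gene. Of the 31-base words in Ccr2 transcripts, 3.5% also occur in another gene. The share was 21.7% for Ccr9, 3.3% for Cx3cr1, 0.9% for Ccr6, 0.1% for Cxcr4 and 0.0% for Cxcr3. Most of the words shared by Ccr9 are those of AC165425.1 on the opposite strand, which held at most 0.749 CPM, and of Gm17200 on the same strand, which held 1.54 to 4.28 CPM.

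The stretches upstream of Cxcr3 and Xcr1 are shown because the levels of these genes ran together most closely among the receptor pairs examined. Both are the 250 bases before the start of the gene in RefSeq on GRCm38.p6, written 5′ to 3′ along the gene's strand. Capitals mark GGAAGT, the core bound by ETS factors such as PU.1, on either strand. The Cxcr3 stretch is chrX:101734148-101734397 and the Xcr1 stretch is chr9:123862030-123862279, both on the minus strand, and GENCODE M21 places the start of Cxcr3 inside the printed stretch.
Cxcr3: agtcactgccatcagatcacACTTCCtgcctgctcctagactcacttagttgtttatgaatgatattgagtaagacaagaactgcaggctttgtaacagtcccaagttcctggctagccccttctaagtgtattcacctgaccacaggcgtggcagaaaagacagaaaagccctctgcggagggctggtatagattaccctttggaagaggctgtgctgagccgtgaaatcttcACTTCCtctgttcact
Xcr1: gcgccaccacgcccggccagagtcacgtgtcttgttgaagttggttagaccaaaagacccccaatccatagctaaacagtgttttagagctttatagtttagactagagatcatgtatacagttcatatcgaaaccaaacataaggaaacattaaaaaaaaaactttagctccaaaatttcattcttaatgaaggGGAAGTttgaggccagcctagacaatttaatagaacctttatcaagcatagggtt
GGAAGT occurred 2 times upstream of Cxcr3, with first bases 230 and 16 bases before the start, and 1 time upstream of Xcr1, 55 bases before the start. Of 32851 mouse promoters of this length, 19.7% held GGAAGT on either strand. The RUNX core TGTGGT, found in 14% of the promoters, occurred 1 time upstream of Cxcr3 and was not among the letters upstream of Xcr1. That match does not overlap either GGAAGT match. Among the other receptors, GGAAGT occurred 1 time upstream of 1 of the 2 RefSeq starts of Ccr6, with its first base 224 bases before that start, and TGTGGT occurred 1 time upstream of Cx3cr1. Neither motif was among the letters of the same window of Ccr2, Ccr9 or Cxcr4. For Ccr2, Ccr9 and Cx3cr1, GENCODE M21 places the outermost start of the gene upstream of most or all of this window. The letters upstream of the window were not searched.

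Ordered by median TPM over the 9 libraries, Ccr7 led the 24 receptors of the family with 354 TPM, followed by Xcr1 with 61.3 TPM. Ccr2 came next with a median of 28.6 TPM, ahead of Cxcr4 with 21.8 TPM and Cxcr3 with 18.8 TPM. These 3 do not separate beyond their spread, since Ccr2 exceeded Cxcr4 in 6 of 9 libraries and Cxcr4 exceeded Cxcr3 in 6 of 9. Below them, Ccr9 had a median of 8.01 TPM and was under Cxcr3 in 9 of 9 libraries. Ccr6 had a median of 1.65 TPM and was under Ccr9 in 9 of 9 libraries. Cx3cr1, rank 13 in the family with a median of 0.702 TPM, was under Ccr6 in 8 of 9 libraries.

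The largest fold difference among the 6 receptors was in Ccr2, which was lower in Tumor than in Healthy libraries by 2.95-fold, without passing the test over all genes. Ccr2 stood at 136, 277 and 163 CPM in Healthy 1, 2 and 3, at 90.8, 174 and 150 CPM in PanIN 1, 2 and 3, and at 42.7, 107 and 45.9 CPM in Tumor 1, 2 and 3. All 3 Tumor libraries were below all 3 Healthy libraries, while Tumor 2 was above PanIN 1. The mean was 65.2 ± 36.1 CPM in Tumor and 192 ± 74.8 CPM in Healthy libraries, with 138 ± 42.9 CPM in PanIN libraries (SD, n = 3 each).

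Tumor against Healthy, Ccr2 had a log2 fold change of -1.56 (SE 0.40, 95% interval -2.43 to -0.69), with an unadjusted p of 0.00213 and a Benjamini-Hochberg adjusted p of 0.168 by edgeR's quasi-likelihood test over 24133 genes. Without Healthy 2 the log2 fold change was -1.20 (adjusted p 0.0701), and between the single libraries of the shared title code it was -1.67. DESeq2 (-1.58, adjusted p 0.011), edgeR without a low-count filter (-1.56, adjusted p 0.0123) and limma-voom with sample quality weights (-1.31, adjusted p 0.0271) put it past the threshold of 0.05. These settings called 4.45%, 2.82% and 8.23% of all genes tested in this comparison, in the same order. Under all alternatives its adjusted p ran from 0.011 to 0.433. By the same edgeR test, the log2 fold change of Ccr2 in Tumor against PanIN was -1.09 (SE 0.40, unadjusted p 0.0179, adjusted p 1), and the PanIN against Healthy value was -0.47 (SE 0.39, adjusted p 0.743). Because these are bulk samples, fewer cells that express Ccr2 and less Ccr2 RNA per cell cannot be told apart.

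As a share of the summed TPM of the 6 receptors, Ccr2 made up 12.5%, 30.6% and 17.2% in Tumor 1, 2 and 3, against 32.9%, 45.1% and 47.6% in Healthy 1, 2 and 3. The sum itself, which includes Ccr2, was 58.7 to 65.6 TPM in Tumor and 69.2 to 123 TPM in Healthy libraries, so the ranges do not overlap. In PanIN 1, 2 and 3 it was 86.0, 132 and 108 TPM. Among the 6 receptors, only Ccr2 separated Tumor from Healthy libraries by its own TPM. Relative to Xcr1, a ratio chosen after the values were seen, Ccr2 TPM was 23.7%, 24.4% and 17.0% in Tumor 1, 2 and 3, against 46.6%, 37.6% and 76.1% in Healthy 1, 2 and 3. In PanIN 1, 2 and 3 this ratio was 35.8%, 55.4% and 30.3%, and every Tumor library lay below every library of the other stages.

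Ccr2 is also a defining receptor of monocytes, so the markers of that lineage were set beside it. All 14 listed monocyte or macrophage markers were tested and none was at 0 in all 9 libraries. Their sum was 228 to 316 CPM in Tumor and 334 to 528 CPM in Healthy libraries, which do not overlap, with 273 to 374 CPM in PanIN libraries. Of the 14, 11 had a negative log2 fold change in Tumor against Healthy, against 56.5% of all genes. By edgeR's quasi-likelihood test 3 (Lyz2, Csf1r and Mertk) were lower at an unadjusted p under 0.05, against 11.0% of all genes. The sum and Ccr2 ranked the Healthy libraries in the same order. Tumor 1 had the highest sum of the Tumor libraries, 316 CPM, and the lowest Ccr2, 42.7 CPM. PanIN 3 had the highest PanIN sum, 374 CPM, and PanIN 2 the highest PanIN Ccr2, 174 CPM. Lyz2, lysozyme of myeloid cells, had 87.6, 79.6 and 58.7 CPM in Tumor 1, 2 and 3, against 120, 260 and 115 CPM in Healthy 1, 2 and 3. Ly6c2, a marker of classical monocytes, had 12.7, 9.29 and 4.73 CPM in Tumor 1, 2 and 3, against 11.1, 13.0 and 4.83 CPM in Healthy 1, 2 and 3, and these ranges overlap. The part of these cells in the Ccr2 result was not tested.

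Over the 9 libraries, Ccr2 ran opposite to Ccr7. The Pearson correlation of their log2 CPM was -0.80 and Spearman's rho was -0.93 over 9 libraries, with r = -0.81 over the 8 libraries without Healthy 2 and -0.84 over the 7 left when those farthest from the median of Ccr7 were left out. Xcr1 and Cxcr3 also ran opposite to Ccr7, with r = -0.75 and -0.69 over the 9 libraries. Without Healthy 2 these were -0.39 and -0.37, and over the same 7 libraries they were -0.94 and -0.92. The libraries share their depth and composition between both genes of a pair, so these values are descriptions only. Ccr7 stood at 2600, 1100 and 1580 CPM in Tumor 1, 2 and 3, against 1270, 57.2 and 419 CPM in Healthy 1, 2 and 3. Its log2 fold change in Tumor against Healthy was 1.60 (SE 0.77), with an adjusted p of 0.302 by edgeR's quasi-likelihood test. The sum of the 10 mature or migratory dendritic cell markers, Ccr7 among them, was 8040 to 15300 CPM in Tumor and 649 to 7720 CPM in Healthy libraries. Its part in the Ccr2 values was not tested. The genes most like Ccr2 among 9153 protein-coding genes, by Pearson correlation of log2 CPM over the 9 libraries, were Pank1 (r = 0.97), Uhrf1bp1l (0.968) and Tle1 (0.963).

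**Figure D1:**
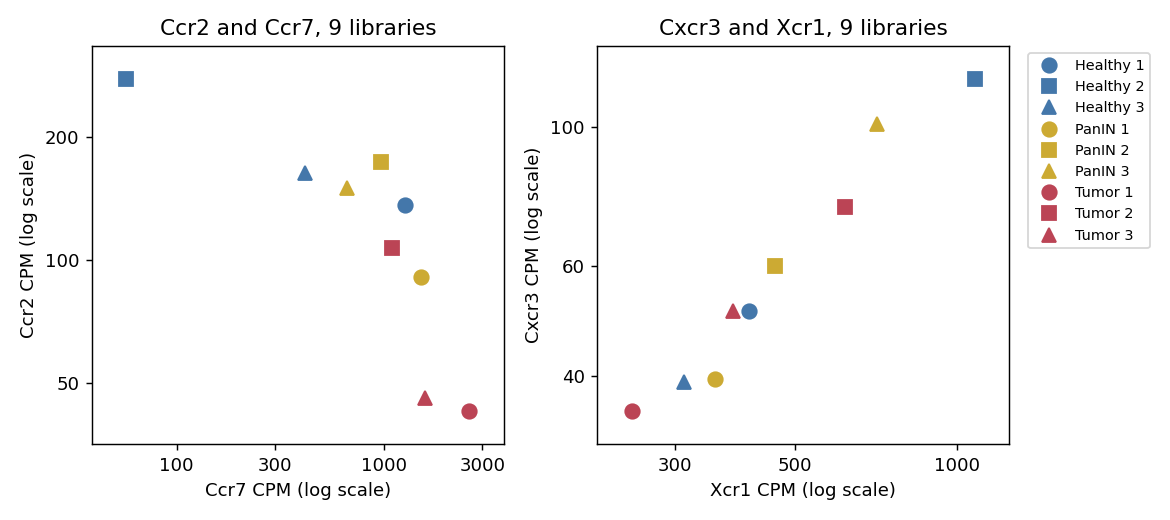
Ccr2 CPM against Ccr7 CPM (left) and Cxcr3 CPM against Xcr1 CPM (right), all axes on a log scale, 1 point a library, with colour for stage and shape for library number. Tumor 1 and Tumor 3 lie at the high Ccr7 and low Ccr2 end, and Cxcr3 and Xcr1 rank the 9 libraries in the same order.

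Cxcr3, the receptor for interferon-induced chemokines, did not pass the test in any comparison and followed Xcr1 from library to library. It stood at 50.9, 119 and 39.2 CPM in Healthy 1, 2 and 3, at 39.6, 59.9 and 101 CPM in PanIN 1, 2 and 3, and at 35.2, 74.5 and 50.9 CPM in Tumor 1, 2 and 3. Healthy 2 and PanIN 3 were high, and the ranges of all 3 stages overlap. The log2 fold change was -0.38 (SE 0.44, 95% interval -1.34 to 0.58) in Tumor against Healthy, -0.06 (SE 0.44) for PanIN against Healthy, and -0.32 (SE 0.44) between Tumor and PanIN, each with an adjusted p of at least 0.725 by edgeR's quasi-likelihood test. Without Healthy 2 the first 2 of these were 0.25 and 0.57, so their sign rests on that library.

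The correlation of Cxcr3 with Xcr1 in log2 CPM was r = 0.98 with rho = 1.0 over 9 libraries, and r = 0.97 over the 8 without Healthy 2. Cxcr3 TPM was 23.9% to 33.4% of Xcr1 TPM in every library, with means of 27.2 ± 2.93% in Healthy, 29.1 ± 3.99% in PanIN and 30.4 ± 2.98% in Tumor libraries (SD, n = 3 each). Over the same libraries Xcr1 itself ran from 249 to 1080 CPM. By correlation Xcr1 ranked 3 among the 9153 genes searched for likeness to Cxcr3, after Arhgap18 (r = 0.989) and Fam149a (r = 0.987). Cxcr3 and Ccr2 had r = 0.62 over the 9 libraries, 0.43 without Healthy 2 and 0.34 over the 7 left without those farthest from the median of Cxcr3. Cxcr3 is also known on T and NK cells, whose marker sums ran from 66.8 to 479 CPM (12 T cell markers) and from 74.5 to 170 CPM (8 NK cell markers). Tumor 1 had the highest T cell sum and the lowest Cxcr3 level, and the part of T and NK cells in the Cxcr3 values was not tested.

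Cxcr4, which holds cells near Cxcl12-producing stroma, was the only one of the 6 with a positive log2 fold change against Healthy in both later stages; in Tumor this turned to -0.06 with limma-voom sample weights and to -0.05 without Tumor 1. It stood at 70.7, 47.0 and 35.2 CPM in Healthy 1, 2 and 3, at 92.2, 87.0 and 36.4 CPM in PanIN 1, 2 and 3, and at 106, 42.7 and 55.7 CPM in Tumor 1, 2 and 3. The stages overlap, with PanIN 3, Tumor 2 and Tumor 3 below Healthy 1. The log2 fold change was 0.42 (SE 0.41, 95% interval -0.47 to 1.31) in Tumor against Healthy and 0.50 (SE 0.41) for PanIN against Healthy, with adjusted p of 0.655 and 0.737 by edgeR's quasi-likelihood test. Of the 3 libraries in each stage, Cxcr4 was highest in the library of the shared title code in all 3 stages, and so was the T cell marker sum, at 353 CPM in Healthy 1, 319 CPM in PanIN 1 and 479 CPM in Tumor 1, against 66.8 to 198 CPM in the other 6 libraries. Cd3e, a chain of the T cell receptor complex, had 37.0 CPM in Tumor 1, and no T cell marker was at 0 in all 9 libraries. The sum of the 10 mature or migratory dendritic cell markers was also highest in that library of each stage. It was 7720 CPM in Healthy 1, 9070 CPM in PanIN 1 and 15300 CPM in Tumor 1. Cxcr4 and Ccr7 had r = 0.54 and rho = 0.72 in log2 CPM over the 9 libraries, and r = 0.79 over the 8 without Healthy 2. The part of T cells or of mature dendritic cells in the Cxcr4 values was not tested. Within the shared title code, Cxcr4 differed by 0.59 on the log2 scale in Tumor 1 against Healthy 1. The genes most like Cxcr4 over the 9 libraries were Sh3kbp1 (r = 0.906), Dgka (0.904) and Hvcn1 (0.90).

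Ccr9, the homing receptor of the small intestine, had overlapping levels at all stages as a gene, while 3 of its transcripts took different shares of it in Tumor and Healthy libraries. It stood at 38.3, 76.2 and 21.3 CPM in Healthy 1, 2 and 3, at 39.4, 40.5 and 31.2 CPM in PanIN 1, 2 and 3, and at 35.2, 44.0 and 31.3 CPM in Tumor 1, 2 and 3. The PanIN and Tumor libraries all lay between the lowest and the highest Healthy library. The log2 fold change was -0.30 (SE 0.37, 95% interval -1.10 to 0.50) in Tumor against Healthy and -0.29 (SE 0.37) in PanIN against Healthy, with adjusted p of 0.747 and 0.858 by edgeR's quasi-likelihood test. Without Healthy 2 these were 0.31 and 0.32. Ccr9 is also known on plasmacytoid dendritic cells. Siglech, their defining lectin, held 1.02 to 2.45 CPM in Tumor and 1.57 to 4.62 CPM in Healthy libraries, and the sum of 10 such markers was 228 to 327 CPM in Tumor and 149 to 244 CPM in Healthy libraries. The genes most like Ccr9 were Nop53 (r = 0.976), Man2b2 (0.974) and Riox2 (0.972).

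Of the 6 annotated Ccr9 transcripts, Ccr9-202 starts 88.8 kb before Ccr9-204, and both were chosen for description after their values were seen. Ccr9-202 held 43.1%, 30.8% and 48.8% of the estimated counts of the gene in Tumor 1, 2 and 3, against 70.1%, 76.5% and 85.0% in Healthy 1, 2 and 3. Ccr9-204 held 40.5%, 59.7% and 35.0% in Tumor 1, 2 and 3, against 17.8%, 17.1% and 0.6% in Healthy 1, 2 and 3. For both transcripts the Tumor and Healthy ranges do not overlap, and the PanIN libraries spread across both, with 36.6% to 73.9% for Ccr9-202. Ccr9-203, a smaller share, held 13.3%, 8.8% and 14.1% in Tumor 1, 2 and 3, against 8.1%, 5.5% and 1.3% in Healthy 1, 2 and 3. Its PanIN share was 14.6% to 19.1%, above every Healthy and every Tumor library. In CPM, Ccr9-202 had 15.2, 13.6 and 15.3 in Tumor 1, 2 and 3, against 26.8, 58.3 and 18.1 in Healthy 1, 2 and 3. Ccr9-204 had 14.3, 26.3 and 11.0 CPM in Tumor 1, 2 and 3, against 6.8, 13.0 and 0.131 CPM in Healthy 1, 2 and 3. The CPM ranges of Ccr9-204 overlap, since Tumor 3 lay below Healthy 2, while those of Ccr9-202 do not. Among 16998 transcripts whose share averaged 10% to 90% of a tested gene with at least 100 counts in every library, 12.0% were lower and 15.6% higher without overlap in Tumor than in Healthy libraries. Among the 7 transcripts of the 6 receptors that met these conditions, 1 was lower (Ccr9-202) and 3 were higher (Ccr9-203, Ccr9-204 and Ccr2-202). The shares of a gene's transcripts add up to the whole, so those of the Ccr9 transcripts depend on each other and are not separate results. The split is the quantifier's estimate from short reads and has no interval of its own.

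The same split was uneven in other members. Ccr2-202, which has a single exon, held 81.3%, 85.5% and 74.2% of Ccr2 counts in Tumor 1, 2 and 3, against 73.4%, 59.1% and 67.9% in Healthy 1, 2 and 3. Its level was nevertheless lower, at 34.7, 91.3 and 34.1 CPM in Tumor 1, 2 and 3, against 99.7, 164 and 111 CPM in Healthy 1, 2 and 3. Ccr2-201 held 0.0%, 0.0% and 4.7% in Tumor and 4.1%, 23.1% and 15.1% in Healthy libraries. Cxcr4-202, the minor form of Cxcr4, held 0.0% to 1.8% in Tumor and 6.2% to 8.7% in Healthy libraries, with a mean of 7.7 ± 2.0% in PanIN libraries (SD, n = 3). Cx3cr1-202 had counts in Healthy 3 alone, where it made up 41.1% of the gene.

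**Figure D2:**
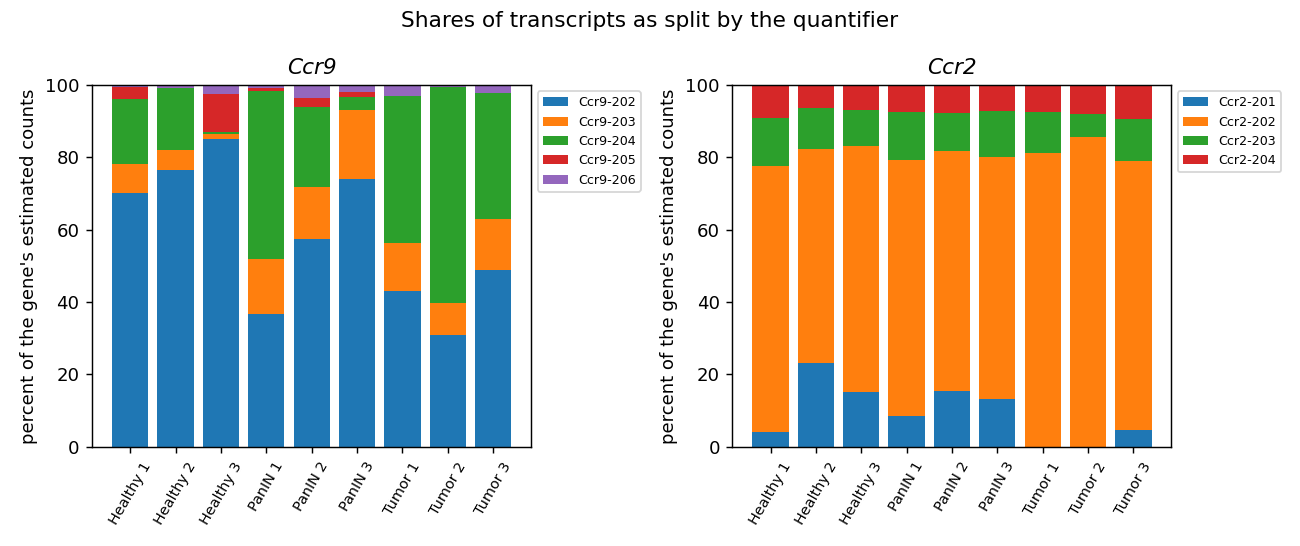
Stacked bars give the percent of each gene's estimated counts that the quantifier placed on each transcript (y axis) in each library (x axis), for Ccr9 (left) and Ccr2 (right). Ccr9-202 makes up 30.8% to 48.8% in the Tumor libraries and 70.1% to 85.0% in the Healthy libraries.

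Ccr6 and Cx3cr1 were the scarcest of the 6. Ccr6, which is also a receptor of B cells, stood at 3.37, 2.47 and 4.83 CPM in Healthy 1, 2 and 3, at 2.46, 6.12 and 1.20 CPM in PanIN 1, 2 and 3, and at 2.92, 0.831 and 1.98 CPM in Tumor 1, 2 and 3. The stages overlap, and the lowest library, Tumor 2, rests on 35 counts. The log2 fold change was -0.90 (SE 0.64, 95% interval -2.29 to 0.49) in Tumor against Healthy, -0.13 (SE 0.63) for PanIN against Healthy, and -0.77 (SE 0.64) between Tumor and PanIN, with adjusted p of at least 0.512 by edgeR's quasi-likelihood test. Without PanIN 2 it was -0.96 for PanIN against Healthy and 0.06 between Tumor and PanIN, so the size of the one and the sign of the other rest on that library. PanIN 2, the library with the highest Ccr6, also had the highest sum of 12 B cell markers, 358 CPM against 57.2 to 109 CPM in the other 8 libraries. Healthy 3, next highest in Ccr6, had the lowest B cell marker sum, 57.2 CPM. No B cell marker was at 0 in all 9 libraries, and the part of B cells in the Ccr6 values was not tested. Its closest genes over the 9 libraries were Sesn1 (r = 0.964), Frs2 (0.924) and Slc39a14 (0.895).

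Cx3cr1, the receptor of membrane-bound Cx3cl1 and a marker of patrolling monocytes and macrophages, had the smallest unadjusted p of the 6 in PanIN against Healthy. It stood at 7.47, 3.07 and 11.9 CPM in Healthy 1, 2 and 3, at 2.94, 3.92 and 2.26 CPM in PanIN 1, 2 and 3, and at 6.13, 3.11 and 4.79 CPM in Tumor 1, 2 and 3. Healthy 3 was highest, and Healthy 2 lay inside the PanIN range. The mean was 3.04 ± 0.834 CPM in PanIN and 7.46 ± 4.39 CPM in Healthy libraries, with 4.67 ± 1.51 CPM in Tumor libraries (SD, n = 3 each). PanIN against Healthy, the log2 fold change was -1.30 (SE 0.50, 95% interval -2.38 to -0.21), with an unadjusted p of 0.0232 and an adjusted p of 0.457 by edgeR's quasi-likelihood test. It was -0.80 without Healthy 3 (adjusted p 0.887) and -1.66 without Healthy 2 (adjusted p 0.0588), and limma-voom with sample quality weights gave -1.17 with an adjusted p of 0.0255, the lowest of its alternatives, which reached 0.948. That setting called 14.1% of all genes in PanIN against Healthy. In Tumor against Healthy the log2 fold change was -0.68 (SE 0.49, adjusted p 0.523), and it was 0.62 (SE 0.50, adjusted p 1) in Tumor against PanIN. The monocyte or macrophage marker sum was 273 to 374 CPM in PanIN and 334 to 528 CPM in Healthy libraries. In PanIN against Healthy 10 of its 14 genes had a negative log2 fold change, against 57.5% of all genes. The highest sum, 528 CPM, was in Healthy 2, the Healthy library with the least Cx3cr1. Among the PanIN libraries the sum was highest in PanIN 3, at 374 CPM, where Cx3cr1 was lowest of all libraries. The part of monocytes and macrophages in the Cx3cr1 values was not tested. The genes most like Cx3cr1 were Paqr8 (r = 0.936), Usp11 (0.922) and Map3k10 (0.911).

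**Figure D3:**
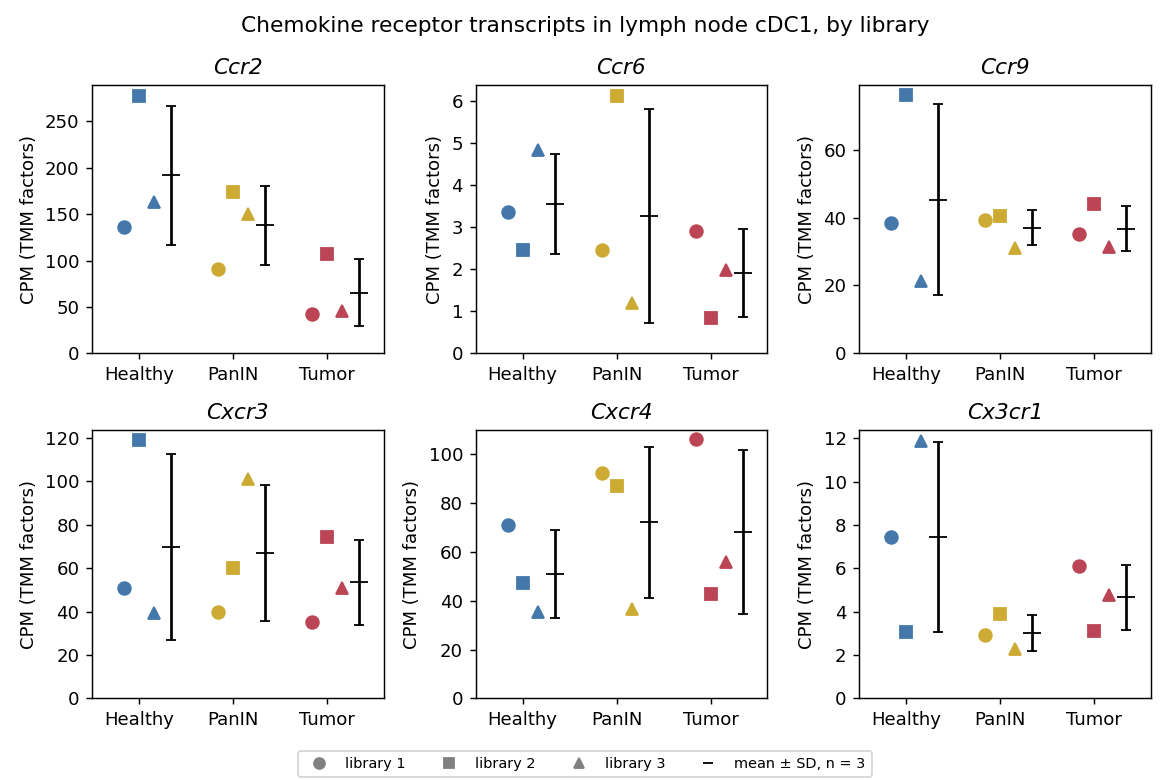
CPM with TMM factors (y axes, each from 0) of the 6 receptors by stage (x axes); points are libraries with their number as shape, and black bars give the mean and SD of 3 libraries. The Tumor libraries lie below the Healthy libraries for Ccr2, at 42.7 to 107 CPM against 136 to 277 CPM, and the stages overlap for the other receptors.

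Set side by side over PanIN against Healthy, Tumor against Healthy and Tumor against PanIN, 0 of the 6 receptors passed the adjusted threshold, where 0.0%, 0.0249% and 0.0124% of all 24133 genes did. Without Healthy 2 the receptors called in Tumor against Healthy were still 0 of 6, where 8.51% of the 25589 genes then tested passed. In the test of any difference among stages 0 of 6 passed as well, against 0.0207% of all genes, and Ccr2 had the smallest p of them, 0.00727 (adjusted p 0.295). Without Healthy 2, 0 of 6 and 5.31% of all genes passed that test. At an unadjusted p under 0.05, 1 of the 6 was lower in each comparison, which was Cx3cr1 in PanIN against Healthy and Ccr2 in both comparisons with Tumor, against 5.65%, 11.0% and 2.52% of all genes. None of the 6 was higher at that line, against 4.82%, 6.82% and 2.02% of all genes, and for any difference among stages 1 of 6 was under it, against 13.4% of all genes. DESeq2, unfiltered edgeR and limma-voom with sample quality weights each called 1 of 6 in Tumor against Healthy, namely Ccr2, and the same receptor for any difference among stages, where they called 2.92%, 2.32% and 13.5% of all genes. Ccr2 in Tumor against Healthy was also the 1 case in which the libraries of a stage all lay below those of the other, as was so for 4.81%, 9.06% and 7.26% of all genes in the 3 comparisons, and no receptor lay wholly above, as did 7.4%, 9.02% and 8.33% of all genes. In each comparison 5 of the 6 had a negative log2 fold change, against 57.5%, 56.5% and 54.2% of all genes in the same order. The median log2 fold change of the 6 was -0.21, -0.53 and -0.20, and that of all genes was -0.10, -0.11 and -0.05. Each pair of these comparisons shares the libraries of 1 stage, among them the Tumor libraries in both comparisons where Ccr2 was lower, so their values are not independent of each other.

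**Figure D4:**
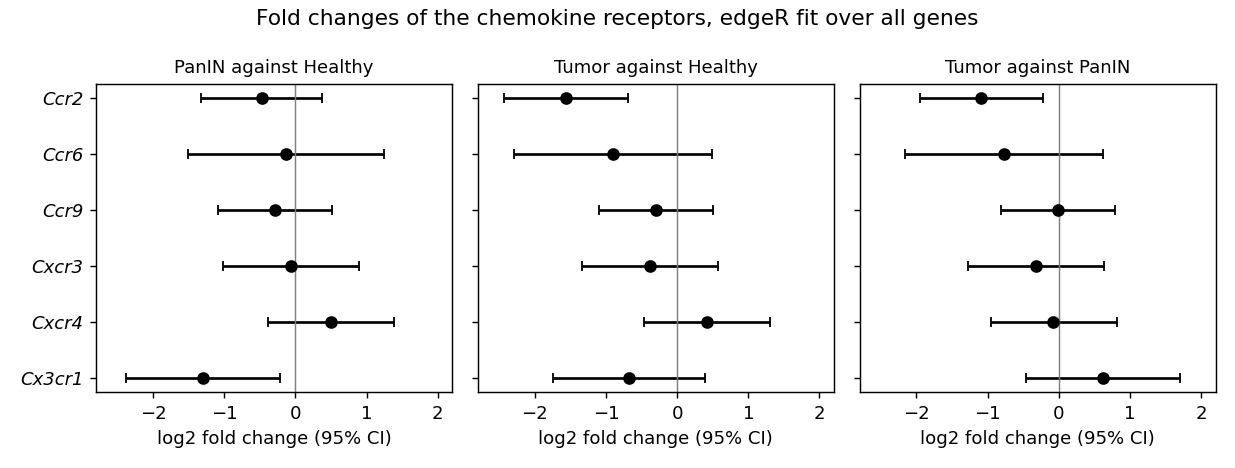
log2 fold change with its 95% confidence interval (x axes) for the 6 receptors (y axis) in the 3 comparisons, from a single edgeR fit over all genes. The interval of Ccr2 lies below 0 in both Tumor comparisons and that of Cx3cr1 in PanIN against Healthy, before adjustment for the number of genes.

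Of the other receptors of the family, 17 of 18 passed the filter on low counts, and 0 passed the test in any comparison by edgeR. At an unadjusted p under 0.05, 6.82% of all genes were higher and 11.0% lower in Tumor against Healthy. Of the 17 receptors, 0 were higher and 2 were lower at that line. These were Cxcr6, the receptor for Cxcl16, whose log2 fold change was -1.72 (SE 0.68, adjusted p 0.222), and Ackr1, a decoy receptor of endothelium, at -1.48 (SE 0.68, adjusted p 0.278). In PanIN against Healthy Cxcr5, the follicle receptor of B cells, was higher with 1.80 (SE 0.73, adjusted p 0.457), and Ackr1 was lower with -1.51 (SE 0.68, adjusted p 0.468). Of all genes, 4.82% were higher and 5.65% lower at that line in this comparison. The median log2 fold change of the 17 receptors was -0.53 in Tumor against Healthy, 0.02 for PanIN against Healthy and -0.28 between Tumor and PanIN. Cxcr5 had 11.0 CPM in PanIN 2, the library with the highest B cell marker sum.

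Of 11 ligands of the 6 receptors, 9 passed the filter and 0 passed the test. Cxcl9, a ligand of Cxcr3, was well expressed, at 214, 257 and 303 CPM in Tumor 1, 2 and 3, against 246, 566 and 157 CPM in Healthy 1, 2 and 3, with overlapping ranges. Cxcl12, the ligand of Cxcr4, was low, at 2.71, 3.25 and 2.50 CPM in Tumor 1, 2 and 3, against 5.81, 4.28 and 9.46 CPM in Healthy 1, 2 and 3. The Tumor libraries lay below the Healthy libraries, with a log2 fold change of -1.21 (SE 0.46, unadjusted p 0.021, adjusted p 0.201 by edgeR's quasi-likelihood test), and it was the 1 ligand under an unadjusted p of 0.05. Of all genes, 11.0% were lower at that line in Tumor against Healthy, and 9.06% lay wholly below. The ligands' median log2 fold change was -0.13 in Tumor against Healthy, 0.24 for PanIN against Healthy and -0.24 between Tumor and PanIN.

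All 29 genes listed for signalling below the receptors were tested, and 0 passed. In Tumor against Healthy 3 were higher and 1 was lower at an unadjusted p under 0.05, and in PanIN against Healthy the same 3 were higher. Of all genes, 6.82% were higher and 11.0% lower at that line in Tumor against Healthy, and 4.82% were higher in PanIN against Healthy. The pair of arrestins, which bind activated receptors and uncouple them from G proteins, pointed in opposite directions. Arrb2 had 241, 151 and 230 CPM in Tumor 1, 2 and 3, against 119, 91.2 and 82.5 CPM in Healthy 1, 2 and 3, and the groups do not overlap. Its log2 fold change was 1.09 (SE 0.25, unadjusted p 0.000816, adjusted p 0.168 by edgeR's quasi-likelihood test). Arrb1 had 57.4, 108 and 84.8 CPM in Tumor 1, 2 and 3, against 105, 224 and 126 CPM in Healthy 1, 2 and 3, and Tumor 2 lay above Healthy 1. Its log2 fold change was -0.86 (SE 0.34), with an adjusted p of 0.215 by the same test. The kinase Grk3, which marks activated receptors for arrestin, was at 0.74 on the log2 scale (SE 0.23, adjusted p 0.168), and Pik3r5, a regulatory subunit of the lipid kinase driven by G proteins, had 0.86 (SE 0.31, adjusted p 0.183). In PanIN against Healthy the values were 0.70 for Arrb2, 0.94 for Grk3 and 0.91 for Pik3r5, with adjusted p of 0.457, 0.329 and 0.457 by the same test. The median log2 fold change of the 29 genes was 0.16 in Tumor against Healthy, 0.05 for PanIN against Healthy and -0.06 between Tumor and PanIN.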

How the data were processed

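RNA was measured in 9 libraries of lymph node cDC1, with 3 each at the stages Healthy, PanIN and Tumor. Per the labels' protocols, a column micro kit gave the RNA and a directional kit the libraries. The authors deposited estimated counts and TPM for each transcript, and the submitters' processing notes name Salmon and the mm10 build. The names of the deposited tables mention another quantifier, sailfish, so the tool is open. For its version, its settings and any use of strand the sources used here give nothing.

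Of 136288 transcripts, 136176 matched GENCODE M21 by identifier and held at least 99.963% of each library's counts; the other 112 were left out. Counts were summed to genes and rounded, and 24133 genes passed filterByExpr (minimum count 10, minimum total 15). edgeR 4.0.16 in R 4.3.3 fitted all 9 libraries with TMM factors of 0.83 to 1.19 and stage as the only term, and quasi-likelihood tests were adjusted by Benjamini-Hochberg over all tested genes (threshold 0.05). The common biological coefficient of variation was 56.5%. DESeq2 1.42.0 and limma 3.58.1 served as alternatives, on TPM with pseudocounts of 1 and 0.1 where TPM were used. The fit was tested on simulated data.

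The 6 receptors, the lists and the markers were chosen with earlier results of these data known. The text names the 6 receptors, Ccr7 and Xcr1, up to 4 genes of each list with the smallest unadjusted p under 0.05 and, per receptor, the 3 protein-coding genes most correlated with it (mean log2 CPM at least 3). Marker genes and other genes named outside this rule were chosen after their values were seen. Motifs were searched in RefSeq promoters of GRCm38.p6. With 3 libraries a group, an exact permutation test of a single value cannot give p below 0.1, so none is reported.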

Additional observations from a re-analysis of the deposited data

How the results depend on the processing

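Of 342 recomputed log2 fold changes of the 6 receptors with a test, 304 kept their direction and their side of the threshold, 4 kept their direction and passed it, and 34 reversed. Another 18 were differences between single libraries of the shared title code, with no test, and 3 of these reversed. The count of called receptors was 0 of 6 in all comparisons in the main analysis and became 1 with DESeq2 and with no filter on low counts (Ccr2, in Tumor against Healthy and in any difference among stages), and 1 with limma-voom sample weights (Ccr2 in those same tests, Cx3cr1 in PanIN against Healthy). The adjusted p of Ccr2 for any difference was then 0.0343, 0.0227 and 0.0199. With DESeq2 1627 of 36574 genes passed in Tumor against Healthy, with no filter 1041 of 36907, and with sample weights 1986 of 24133, with 3409 in PanIN against Healthy. Without Healthy 2 the edgeR calls in Tumor against Healthy numbered 2177 of 25589, against 6 with it. The cause was not tested. limma-voom gave Healthy 2 a weight of 0.172, Healthy 3 a weight of 0.269 and Healthy 1 a weight of 4.32. Its comparisons with Healthy, including the calls of Ccr2 and Cx3cr1, therefore rest mostly on Healthy 1.

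With each library left out in turn, the count of called receptors ranged from 0 to 0 in every comparison. For PanIN against Healthy, the log2 fold change then ranged from -0.67 to -0.11 for Ccr2, -0.96 to 0.27 for Ccr6, -0.59 to 0.32 for Ccr9, -0.48 to 0.57 for Cxcr3, 0.27 to 0.82 for Cxcr4 and -1.66 to -0.80 for Cx3cr1. For Tumor against Healthy, it ranged from -2.11 to -1.20 for Ccr2, -1.34 to -0.54 for Ccr6, -0.61 to 0.31 for Ccr9, -0.69 to 0.25 for Cxcr3, -0.05 to 0.73 for Cxcr4 and -1.05 to -0.18 for Cx3cr1. For Tumor against PanIN, it ranged from -1.64 to -0.86 for Ccr2, -1.22 to 0.06 for Ccr6, -0.16 to 0.10 for Ccr9, -0.64 to 0.11 for Cxcr3, -0.55 to 0.17 for Cxcr4 and 0.37 to 0.84 for Cx3cr1.

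Other reversed values were small and did not pass. In PanIN against Healthy, limma-voom gave 0.13 for Ccr2, 0.14 for Ccr6, 0.02 for Ccr9 and 0.29 for Cxcr3, and the TPM scale gave 0.11 (pseudocount 1) and 0.14 (0.1) for Ccr9 and 0.30 and 0.32 for Cxcr3. That scale moved the median of all genes by 0.343 and 0.378 in this comparison, and by -0.247 and -0.32 in Tumor against PanIN. Over the 6 libraries outside the shared title code, Cxcr3 had 0.02 in PanIN against Healthy and Ccr9 had 0.11 in Tumor against PanIN. Within that code, single libraries gave 0.04 for Ccr9 in PanIN against Healthy, and 0.25 for Ccr6 and 0.20 for Cxcr4 in Tumor against PanIN. In Tumor against PanIN, Ccr9 had 0.01 with DESeq2, with RLE factors and with no filter. In Tumor against Healthy, limma-voom gave -0.06 for Cxcr4. No paired analysis was possible because the labels carry no replicate numbers and 1 library a stage carries the shared title code. With a term for that code, Ccr2 in Tumor against Healthy was -1.58 (SE 0.32, adjusted p 0.103 by edgeR's quasi-likelihood test). Interval widths set the limit of these data: with 3 libraries a stage, the 95% intervals of Ccr6 reach from -2.29 to 0.49 in Tumor against Healthy.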
